A study of Mus musculus with 2 samples.

Results

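Mast cells of mouse embryonic skin are described here, 392 cells in all, 155 from a wildtype library and 237 from a Wntless mutant library. They were taken from 19514 barcodes, of which 15137 had 1000 or more genes and under 10% mitochondrial UMIs (unique molecular identifiers, the count of captured RNA molecules). A member lay off the authors' list of dermal cells, had at least 3 of the 7 mast cell genes Cma1, Cpa3, Mcpt4, Tpsb2, Gata2, Ms4a2 and Hdc with 5 or more UMIs of them together, and had fewer than 2 of the 3 macrophage complement genes C1qa, C1qb and C1qc. Levels of those genes therefore chose the cells and are given as a description only.

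Flank skin came from E14.5 embryos, the stage of the first wave of hair follicle formation, and 2 to 3 embryos of a genotype were pooled into 1 droplet-based 3′ library. Wildtype embryos were littermates of the mutants, in which K14Cre, driven by the keratin 14 promoter, active in keratinocytes, was bred to the Wntless fl/fl allele. Wntless (Wls) carries Wnt proteins to the cell surface. With 1 library per genotype there was no replicate and no test, and every interval below is a 95% interval for counting error only. Genotype, embryo pool and library cannot be told apart.

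Mast cells are tissue cells of the blood lineage that store proteases, histamine and heparin in granules and release them when antigen binds IgE held on their high-affinity IgE receptor. Their growth and survival depend on the receptor Kit and on its ligand, which connective tissue cells make. In the mouse the skin is populated by mast cells before birth, and the protease content of a mast cell differs with tissue and maturity.

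The members were deeply sequenced cells. They held 4006644 UMIs in the wildtype and 8801730 in the mutant library. A wildtype mast cell had a median of 23183 UMIs and 4351 genes, and a mutant one 35176 UMIs and 5133 genes, against 11341 and 14602 UMIs over all barcodes of each library. The classes set beside them included 236 wildtype and 288 mutant macrophages, 5300 and 5028 dermal cells on the authors' lists, and 485 and 158 keratinocytes. Wls, the targeted gene, stood at 130.0 CPM (UMIs of a gene per 1000000 UMIs of its class) in wildtype and 6.19 in mutant keratinocytes. In mast cells it stood at 12.0 and 11.9 CPM. The 2 libraries shared 19 barcodes, none of them a mast cell in both.

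The promoters of 5 genes that the results below turn on are shown first. All 5, Gzmb included, were at least 4-fold higher in mast cells than in each other class, and Gzmb runs against Cma1 within the members. Each is the 250 bases before the RefSeq transcription start (build GRCm38), 5′ to 3′ on the gene's strand. Capitals mark a word known to be bound by GATA factors such as Gata2, on either strand. The words searched were AGATAA, its form with G as the last base, AGATAG, the form with T as the first base, TGATAA, and the form with both changes, TGATAG.
Cma1, chr14:55944676-55944925, minus strand: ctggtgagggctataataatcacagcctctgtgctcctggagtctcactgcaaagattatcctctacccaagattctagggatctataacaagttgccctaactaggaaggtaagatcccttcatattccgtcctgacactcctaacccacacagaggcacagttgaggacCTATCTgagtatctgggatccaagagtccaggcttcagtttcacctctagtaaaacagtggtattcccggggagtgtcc
Cpa3, chr3:20242182-20242431, minus strand: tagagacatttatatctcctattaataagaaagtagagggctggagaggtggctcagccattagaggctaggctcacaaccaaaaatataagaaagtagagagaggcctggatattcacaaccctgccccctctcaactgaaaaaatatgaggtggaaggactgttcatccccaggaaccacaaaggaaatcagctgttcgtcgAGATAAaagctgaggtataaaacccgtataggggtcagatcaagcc
Ms4a2, chr19:11623720-11623969, minus strand: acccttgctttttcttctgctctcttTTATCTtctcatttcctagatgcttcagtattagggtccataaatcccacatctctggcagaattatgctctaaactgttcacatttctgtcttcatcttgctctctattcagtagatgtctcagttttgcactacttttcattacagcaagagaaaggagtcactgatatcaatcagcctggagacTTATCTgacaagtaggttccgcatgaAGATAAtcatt
Prss34, chr17:25298144-25298393, plus strand: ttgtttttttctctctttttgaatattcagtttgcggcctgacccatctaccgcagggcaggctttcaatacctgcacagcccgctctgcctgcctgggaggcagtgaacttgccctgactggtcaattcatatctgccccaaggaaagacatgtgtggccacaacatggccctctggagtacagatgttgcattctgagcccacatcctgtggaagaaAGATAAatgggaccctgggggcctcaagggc
Gzmb, chr14:56262335-56262584, minus strand: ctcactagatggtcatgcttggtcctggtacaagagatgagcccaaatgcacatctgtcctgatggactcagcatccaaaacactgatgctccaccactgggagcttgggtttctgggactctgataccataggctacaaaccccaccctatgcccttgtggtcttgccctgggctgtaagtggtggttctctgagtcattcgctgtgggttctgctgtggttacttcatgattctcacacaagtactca
The Ms4a2 window held 3 matches, those of Cma1, Cpa3 and Prss34 1 each, and that of Gzmb 0. At least 1 such word occurred in 8718 of 32851 promoter windows of this length (26.5%). Counted by gene, 8039 of 27025 genes had it (29.7%), and 40 of the 90 mast-high genes with a RefSeq promoter had it (44.4%). Those mast-high genes, 122 in all, are defined further on. The words are short and a match is no evidence of binding. No promoter entry was matched for Tpsb2 or Tpsab1.

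Granule proteases were abundant messages of the members. Cpa3, mast cell carboxypeptidase A (chromosome 3, 20215620 to 20242181, minus strand), stood at 8009 CPM in wildtype and 8849 in mutant mast cells. Per cell it ranged from 0 through a median of 201 to 435 UMIs in the wildtype library, and from 0 through 348 to 807 in the mutant. All but 1 member of each library had a Cpa3 UMI. Cma1, the chymase of connective tissue mast cells (chromosome 14, 55941451 to 55944675, minus strand), stood at 4772 and 4025 CPM. Its counts per cell spread much further, from 0 through 79 to 511 UMIs and from 0 through 69 to 874. Tpsb2, a tryptase (chromosome 17, 25366305 to 25369098, plus strand), stood at 1587 and 1083 CPM, with 0, 18 and 249 UMIs as the lowest, median and highest wildtype cell and 0, 14 and 302 in the mutant. The cells of the 2 libraries overlapped for all 3 genes, and the highest counts were in the more deeply sequenced mutant cells.

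Mcpt4, another chymase and a member of the choosing rule, was close to absent. It had a UMI in 8 of 155 wildtype and 9 of 237 mutant members, and the single highest cell held 52.0% and 55.3% of its UMIs. Members were therefore chosen almost entirely by the other 6 genes.

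The remaining rule genes were spread evenly. Hdc, which makes histamine, stood at 758 and 698 CPM and had a UMI in 155 of 155 wildtype and 233 of 237 mutant members. Gata2, a transcription factor of the mast cell lineage, stood at 460 and 445 CPM. Ms4a2, the beta chain of the IgE receptor, stood at 130 and 144 CPM, at a median of 3 and 5 UMIs per cell. Kit stood at 263 and 285 CPM and was found in 147 and 223 members.

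**Figure D1:**
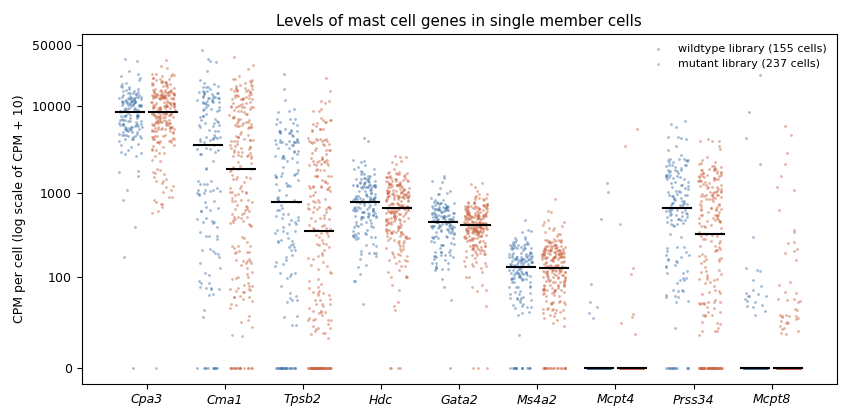
CPM in each of the 155 wildtype and 237 mutant member cells for 9 genes, on a log scale of CPM + 10, with a black bar at the median. Cpa3, Hdc and Gata2 form a single band, whereas Cma1, Tpsb2 and Prss34 spread from 0 to the height of that band or above and Mcpt4 and Mcpt8 are at 0 in most cells.

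The label of mast cells was checked against markers the rule did not use. Fcer1g, the gamma chain shared by Fc receptors, stood at 820 and 751 CPM, and Srgn, the core protein that carries heparin, at 2714 and 2997. Il1rl1, the receptor for interleukin 33, stood at 126 and 132 CPM and Slc18a2, which loads amines into granules, at 54.4 and 55.2. The exception was Fcer1a, the alpha chain that binds IgE, with 2 UMIs in 2 wildtype cells and 11 UMIs in 10 mutant cells. Of the 3 chains of the IgE receptor, Ms4a2 was a rule gene and Fcer1g was shared with macrophages, so neither checks the label. The third, Fcer1a, was nearly undetected at this depth.

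Markers of other blood cells were low for macrophages and neutrophils, and mixed for lymphoid and progenitor cells. Of 15 macrophage markers, 7 were at 0 in wildtype and 2 in mutant mast cells, with Csf1r at 0.499 and 1.48 CPM against 455 and 479 in macrophages. Their summed level, 132 and 156 CPM, was almost wholly Cx3cr1, at 127 and 136 CPM. The list includes C1qa, C1qb and C1qc, which the member rule limited and by which the macrophages were chosen. For those genes the low level was fixed by selection. The 11 neutrophil and monocyte markers summed to 7.99 and 22.2 CPM, against 8.47 and 12.4 in macrophages. Mpo had 22 UMIs in 4 wildtype members and 155 in 14 mutant ones. Of these, 21 and 144 were in the members rich in Mcpt8 that are described below. It was the only measured gene of that list, with a log2 ratio of mutant over wildtype of 1.68. Neutrophil genes S100a8, S100a9 and Ly6g had no UMI in either library, which allows up to 3 UMIs each. The platelet genes Ppbp and Gp9 were also at 0. The 11 lymphoid markers summed to 636 and 591 CPM, against 88.9 and 70.3 in macrophages. Most of that was Id2, a transcriptional inhibitor of broad expression, at 472 and 425 CPM, and Il2rg, the common cytokine receptor gamma chain, at 104 and 125, with Cd3g, a T cell receptor subunit, at 41.4 and 29.5. The B cell gene Cd79a was at 0. The 10 progenitor markers summed to 215 and 270 CPM, against 49.6 and 47.5 in macrophages, with Myb at 115 and 145, Cd34 at 67.9 and 81.5 and Flt3 at 0. Fibroblast genes were present at a low level: Col1a1 stood at 297 and 335 CPM against 3143 and 4728 in dermal cells. Its UMIs were uneven, with 24.7% in 1 wildtype member. Haemoglobin Hbb-bs stood at 2789 and 3379 CPM, with 97.8% of the wildtype UMIs in 5 cells.

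Mast cell RNA was rare outside the members. After each cell was thinned to 8000 UMIs, Cpa3 was found in 99.4% of wildtype and 99.6% of mutant mast cells, in 0.732% and 1.78% of dermal cells and in 1.75% and 2.11% of macrophages. Before thinning, the dermal shares were 1.09% and 3.58%, at a median of 11154 and 15566 UMIs.

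Some members sat apart from the rest. Members with 5 or more Mcpt8 UMIs numbered 7 in the wildtype and 16 in the mutant library, those with over 1% collagen UMIs 2 and 12, and those with over 1% haemoglobin UMIs 3 and 6. Without these, 143 and 203 members remained. The 12 mutant members rich in collagen had a median of 21 UMIs of the rule genes, against 586 in the 203 remaining mutant members. Members that also met the marker rule of another cell class numbered 7 and 9, and Scrublet, a doublet caller, marked 14 and 21. At the lower edge of the rule, 2 wildtype and 7 mutant members had fewer than 20 rule UMIs. Just outside it, 3 and 9 barcodes had only 2 rule genes, and 1 and 4 met the rule but had 2 or more complement genes.

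A set of 122 genes, 1.29% of the 9425 genes with 50 or more mast cell UMIs over both libraries, was at least 4-fold above each of 7 other cell classes in both libraries, and these are called mast-high. The rule genes are among them, and since the cells were chosen by their RNA the list is a description. Outside the rule, Prss34 led, a granule protease (chromosome 17, 25298394 to 25300165, plus strand) at 860 CPM in wildtype and 582 in mutant mast cells, with at most 0.575 CPM in any other class. Il13 and Il4, cytokines of type 2 immunity, stood at 154 and 108 CPM and at 50.4 and 41.4 CPM. In a cytokine and chemokine list that does not hold Ccl17, 4 of 10 measured genes were mast-high, Il6 and the interleukin 6 family cytokine Osm being the others. Il5 had no UMI.

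Of 13 measured granule proteases, 10 were mast-high. Of 8 genes of amine synthesis and storage, 4 were: Hdc, Slc18a2, Maob, a monoamine oxidase at 352 and 326 CPM, and Slc22a3, an amine transporter at 135 and 141 CPM. In the heparin list 3 of 13 were mast-high, namely Srgn, the N-deacetylase and sulfotransferase Ndst2 at 111 and 123 CPM, and the 3-O-sulfotransferase Hs3st1 at 290 and 308 CPM. Of 14 exocytosis genes, 4 were: Rab27b, Rab37 and Rab44, small GTPases, and Unc13d, a granule priming factor. Among 22 transcription factors Gata2, Gata1, Myb and Gfi1 were mast-high, Gata1 at 48.7 and 43.3 CPM.

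Other leading genes had roles outside the granule. Cyp11a1, which starts steroid synthesis from cholesterol, stood at 161 and 205 CPM and had no UMI in endothelial cells. Adora3, an adenosine receptor, stood at 137 and 140 CPM, and Ccl17, a chemokine, at 61.2 and 51.6. Clec12b, an inhibitory lectin receptor, stood at 350 and 335 CPM, and Itgb7, the beta 7 integrin subunit that pairs with Itga4, at 34.7 and 44.2. Ptprcap, Smpx and Tespa1 completed the genes outside the rule that stood farthest above other classes, at 305 and 352, 219 and 233, and 145 and 163 CPM. Among receptors of the growth factor and alarmin list, 1 of 11 was mast-high, Il1rl1. Of 13 IgE signalling genes, 2 were: Ms4a2 and the adaptor Lat2.

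Several genes of mature mast cell function were low. Mrgprb2, the receptor for basic peptides, had 0.499 CPM in wildtype and 0 in mutant cells. Hpgds, which makes prostaglandin D2, stood at 7.99 and 5.57 CPM, against 254 and 247 in macrophages, and Ltc4s, which makes leukotriene C4, at 1.25 and 1.48 CPM against 81.6 and 65.5. By contrast Alox5, the first enzyme of the leukotrienes, was mast-high at 54.9 and 74.3 CPM.

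**Figure D2:**
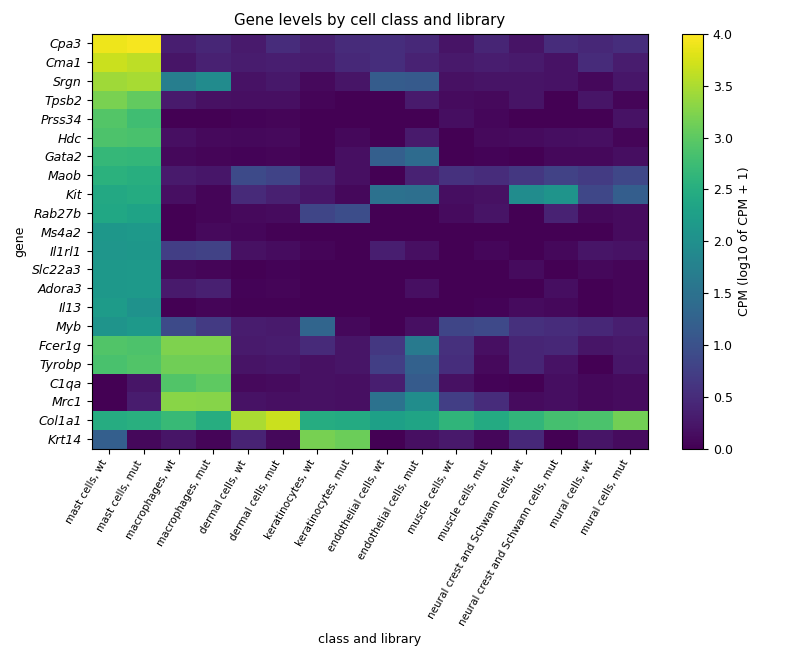
Level of 22 genes (log10 of CPM + 1) in 8 cell classes of the wildtype (wt) and mutant (mut) library. The top 16 rows are highest in mast cells in both libraries, Fcer1g and Tyrobp are shared with macrophages, and C1qa and Mrc1 are near 0 in mast cells.

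Cma1 varied widely among the members. Leaving out the members rich in Mcpt8, collagen or haemoglobin, the other 143 wildtype and 203 mutant cells were split at 1000 and 5000 CPM of Cma1, bounds chosen after the values were seen. The ranges held 44, 33 and 66 wildtype cells and 74, 47 and 82 mutant cells, from low to high. They are ranges and not cell types: in the wildtype library 10 cells lay within 1.2-fold of the lower bound and 11 of the upper, and in the mutant 10 and 13. Low cells were the deeper ones, with median UMIs of 31880, 24970 and 19800 in wildtype and 41990, 34970 and 29640 in mutant cells.

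Many granule genes went up with Cma1 in both libraries. Of 7317 genes with 100 or more UMIs over the ranges, 259 (3.54%) were at least 1.5-fold higher and 263 (3.59%) at least 1.5-fold lower in high than in low cells of both libraries. Of 11 granule proteases 9 were higher, Cma1 among them by construction, and 1, Gzmb, was lower. Tpsb2 went from 270 to 3732 CPM in wildtype and from 168 to 3055 in mutant cells. Cpa3 and Prss34 were also among the 9. Mcpt4 and Mcpt2, counted in the 9 too, rested on few cells. In high cells Mcpt4 had 74 wildtype and 132 mutant UMIs, 39 and 119 of them in 1 cell each. Mcpt2 had 16 and 263 there, with 7 and 131 in 1 cell each. In the heparin list 6 of 12 were higher, with the 6-O-sulfotransferase Hs6st2 at 29.3 against 112 and at 25.6 against 104 CPM. Of 6 amine genes 3 were higher, Hdc, Slc18a2 and the decarboxylase Ddc, and 1 was lower, the monoamine oxidase Maoa. Most genes of 2 other granule lists passed neither way: 2 of 11 exocytosis genes were higher, Rab27b and Rab44, and 3 of 14 lysosome genes, with the protease Ctsl lower. Serpinb1a, an inhibitor of neutrophil-type proteases, went from 334 to 1319 and from 186 to 848 CPM, and Lat2 from 24.0 to 120 and from 34.4 to 125. By contrast, Gfi1 was the only one of 20 transcription factors to be higher, and none was lower.

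Several genes went the other way. Of 8 fetal programme genes, 3 were lower in high cells, Igf2bp2, Hmga2 and Bcl11a, with a list median of -0.62 on the log2 scale in each library, against -0.07 in wildtype and -0.10 in mutant cells over all 7317 genes. Igfbp4, a binding protein of insulin-like growth factors, went from 102 to 28.6 and from 99.4 to 39.2 CPM. Nkg7, a gene of cytotoxic granules, went from 81.1 to 23.4 and from 82.8 to 33.6, and Plac8 from 96.9 to 30.9 and from 163 to 22.8. Gzmb, granzyme B, went from 41.3 to 9.04 and from 65.0 to 5.99 CPM. Of 8 activation genes 5 were higher in high cells and of 12 dissociation stress genes 5 were higher and 1, Hsp90aa1, lower. In the fibroblast list 4 of 6 genes were lower. Their part in these differences was not tested.

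**Figure D3:**
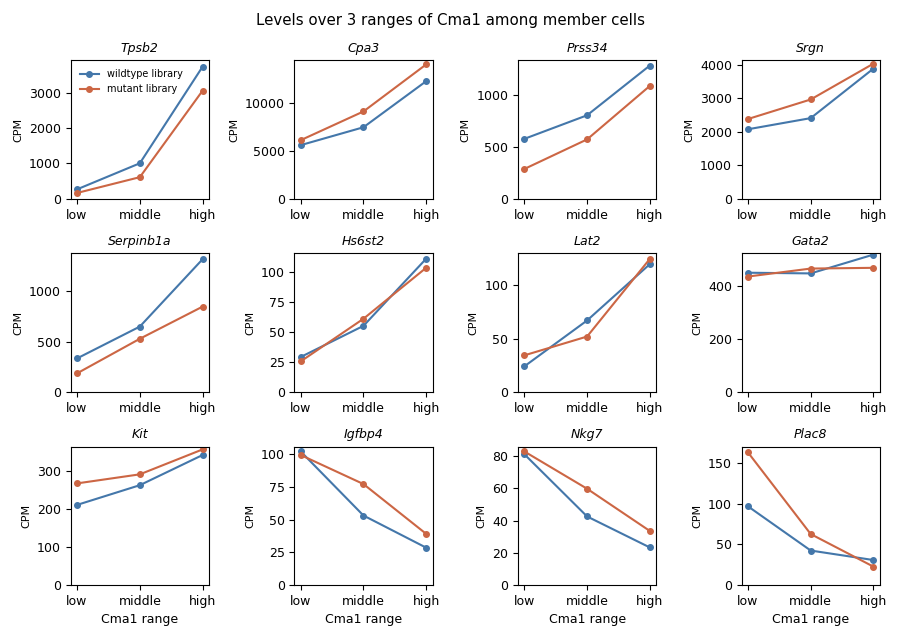
CPM of 12 genes in the low, middle and high Cma1 range (under 1000, 1000 to 5000 and over 5000 CPM) of wildtype and mutant members. Tpsb2 and Serpinb1a increase over the ranges and Igfbp4, Nkg7 and Plac8 decrease in both libraries, while Gata2 stays between 436 and 519 CPM.

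Genes of dividing cells were found in most members. After thinning to 8000 UMIs, 71.9% of wildtype mast cells (110 of 153, interval 64.1 to 78.9) had at least 3 of 8 core G2M genes such as Top2a and Mki67, against 65.1% of mutant ones (151 of 232, 58.6 to 71.2). In macrophages the shares were 52.6% and 44.0%, and in dermal cells 43.6% and 25.6%. By Cma1 range the wildtype shares were 88.4%, 63.6% and 65.2% from low to high, and the mutant shares 78.4%, 63.8% and 51.9%. In both libraries the low range was above the high range, though the wildtype intervals, 74.9 to 96.1 and 52.4 to 76.5, overlapped slightly. The part of free RNA in these counts was not tested.

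**Figure D4:**
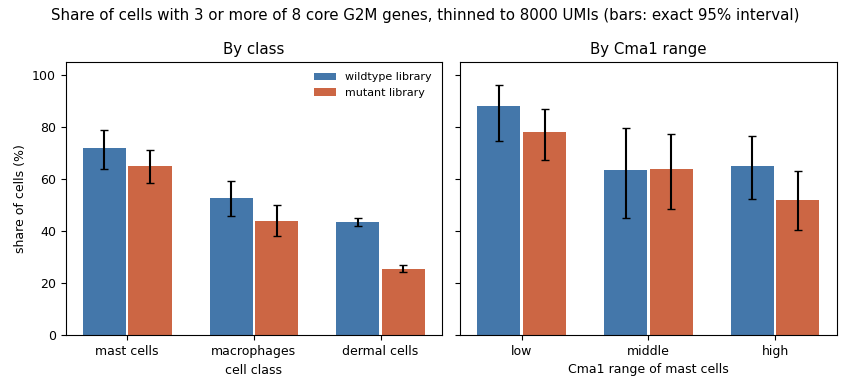
Share of cells with 3 or more of 8 core G2M genes after thinning to 8000 UMIs, by class (left) and by Cma1 range of the mast cells (right), with exact 95% intervals. Mast cells lie above macrophages and dermal cells, and the low Cma1 range lies above the high range in both libraries.

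A small set of members had high Mcpt8, a protease that in the adult marks basophils. In the 7 wildtype cells Mcpt8 stood at 2151 CPM and in the 16 mutant cells at 937, against 7.78 and 4.84 in the 143 and 203 remaining members. Those cells were low in Cma1, at 40.4 and 622 CPM against 5256 and 4493, and in Tpsb2, at 11.5 and 87.8 against 1739 and 1227. The cells were mixed in both libraries. Cma1 per cell ran from 0 through a median of 104.9 to 4020 CPM in the mutant cells, against 0, 0 and 72.7 in the wildtype cells. Mcpt8 per wildtype cell ran from 90.9 to 22727 CPM, and 1 cell held 216 of their 373 Mcpt8 UMIs. That cell had no Cpa3 UMI, whereas the deepest, with 55026 UMIs, had Mcpt8 at 90.9 and Cpa3 at 4598 CPM. Summed Cpa3 was 3686 and 4718 CPM, against 8563 and 9480. The Mcpt8 cells carried Ifitm1 at 4874 and 5687 CPM against 97.8 and 215, and Plac8 at 732 and 888 against 58.4 and 91.7. Mpo, myeloperoxidase, stood at 121 and 258 CPM against 0.278 and 1.44. Not every cell had them: Ifitm1 was found in 5 of 7 and 13 of 16 cells, and Mpo in 3 and 8. Gata2, at 560 and 491 CPM, and Hdc, at 583 and 641, were near the level of the remaining members, which had 475 and 455 and 799 and 734. Prss34, another basophil marker, was not specific to them, at 715 and 254 CPM against 897 and 622. Per cell it was uneven, from 0 to 5722 CPM among the wildtype Mcpt8 cells. In the cell of each library highest in Mcpt8 it stood at 4419 CPM (wildtype) and 1683 (mutant). Of the other basophil markers, Cd200r3 stood at 46.1 and 73.4 CPM against 26.7 and 26.0. Itga2 stood at 28.8 and 14.3 CPM against 4.72 and 3.79, on only 5 and 8 UMIs. Il4 stood at 69.2 and 59.1 CPM against 51.1 and 41.7, and Fcer1a had 0 and 4 UMIs. The cells were picked by Mcpt8 after its values were seen and are given no cell type name.

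The mutant library held more mast cells per barcode. They were 2.00% of quality-passing wildtype barcodes (155 of 7764, interval 1.70 to 2.33) and 3.21% of mutant ones (237 of 7373, 2.82 to 3.64), a ratio of 1.61 (1.31 to 1.98). Measured against macrophages and mast cells together, the shares were 39.6% (34.8 to 44.7) and 45.1% (40.8 to 49.5), a ratio of 1.14. Those intervals overlapped. Keratinocytes, whose number sets part of the denominator, numbered 485 and 158. Dissection, sorting and the pooling of embryos cannot be told apart from genotype here. Kitl, the ligand of Kit, stood at 123 CPM in wildtype and 160 in mutant dermal cells.

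Between genotypes the profile of mast cells was close. Of 9425 measured genes, 638 (6.77%) differed by at least 1.5-fold: 411 (4.36%) were at least 1.5-fold higher in mutant mast cells and 227 (2.41%) at least 1.5-fold lower, with a median log2 ratio of 0.02. Macrophages had 2.26% higher and 5.16% lower, and dermal cells 8.58% and 4.47%. None of 13 IgE signalling genes, 14 exocytosis genes, 13 heparin genes or 15 lysosome genes passed 1.5-fold. Of 10 genes of Wnt reception 1 was lower, Nkd1, a feedback inhibitor of Wnt signalling, at 8.98 and 4.54 CPM. Nkd1 in dermal cells was at 97.9 and 34.4 CPM, and the part of free dermal RNA in the mast cell value was not tested.

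Summed over the members, Cpa3, Cma1, Gata2 and Hdc were within 1.5-fold. The log2 ratio of mutant over wildtype was 0.14 (0.12 to 0.16) for Cpa3, -0.25 (-0.27 to -0.22) for Cma1, -0.05 (-0.13 to 0.03) for Gata2 and -0.12 (-0.18 to -0.06) for Hdc. Tpsb2 and Prss34 lay close to the 1.5-fold bound, at -0.55 and -0.56. Their call changed with the setting: over the alternatives Tpsb2 ran from -0.65 to -0.38 and Prss34 from -0.68 to -0.45. These intervals cover counting of UMIs and not the choice of cells. For Cma1 the median of single members differed more than the sum, at 3605 CPM in wildtype and 1882 in mutant cells. Its lower and upper quartiles were 426 and 10814 CPM in wildtype and 202 and 8051 in mutant cells.

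Of 13 granule proteases 6 were higher and 2 lower in the mutant library, and single cells carried several of them. The direction of 2 of these 8 turned with the choice of members: Mcpt4, among the higher, was -0.25 without the members set aside above, and Mcpt8, among the lower, was 1.31 with 4 of 7 rule genes and 10 UMIs required. Mcpt1 and Mcpt2, chymases known from mucosal mast cells, had 0 and 370 UMIs and 16 and 491 UMIs, wildtype and mutant. Mcpt1 was found in 6 mutant cells, 1 of which held 70.8% of its UMIs, and 1 cell held 44.8% of those of Mcpt2. The fitted log2 ratio of 3.80 for Mcpt2 thus rested on 11 mutant and 7 wildtype cells. Among the 5 mutant cells with 5 or more UMIs of Mcpt4, Mcpt1 or Mcpt2, 1 had 119, 262 and 131 UMIs of them and another 167, 1 and 220. These chymases lie side by side with Mcpt4 and Cma1 on chromosome 14 and resemble each other, so reads could be split between them and their values are uncertain. Gzmb, at 23.5 and 68.0 CPM, had 43.1% of its mutant UMIs in 1 cell, and its log2 ratio of 1.54 was 0.54 without the members set aside above. Tpsab1, a second tryptase, had a ratio of 1.11 in 71 wildtype and 99 mutant cells, 45.8% and 41.8% of the members. Of its mutant UMIs, 16.8% were in 1 cell and 33.4% in 5 cells.

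Outside the granule proteases, Itga4, the integrin subunit that lets leukocytes bind Vcam1, was higher in the mutant library. It stood at 217 and 354 CPM, a log2 ratio of 0.71 (0.60 to 0.82), which stayed between 0.64 and 0.73 in every alternative tried. Its ratio was 0.30 in macrophages and 1.38 in dermal cells, where its level was 11.8 and 30.8 CPM. Vcam1 stood at 269 and 283 CPM in dermal cells. Runx1, a blood lineage transcription factor, was also higher, at 31.9 and 48.2 CPM, with a ratio of 0.59 (0.30 to 0.89). Ccr2, a chemokine receptor, was at 12.2 and 29.3 CPM, with 25 of 49 wildtype and 110 of 258 mutant UMIs in the Mcpt8 cells described above. Smim3 stood at 7.99 and 54.6 CPM and was seen in 30 of 155 and 190 of 237 members. Scin, an actin-severing protein, had 8 and 131 UMIs, 48.1% of the mutant ones in 1 cell. Eif3j2 and Gm42418, the latter an annotation over ribosomal RNA, had ratios of 1.53 and 1.09, beside 0.97 and 1.30 in dermal cells.

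The 3 replication histones named by their rank were higher, and some immediate early genes lower, in the mutant library. Hist1h2ae stood at 78.6 and 262 CPM, with a log2 ratio of 1.74 here, 1.51 in macrophages and 0.50 in dermal cells. Hist1h4d and Hist1h3c had ratios of 1.58 each, beside 1.05 and 1.41 in macrophages and 0.66 and 0.40 in dermal cells. In the immediate early set, Egr1 stood at 228 and 103 CPM, a ratio of -1.15 (-1.28 to -1.01), beside -0.47 in macrophages and -0.61 in dermal cells. Of 12 dissociation stress genes 3 were lower, Egr1, Ier2 and Nr4a1, none was higher, and the median was -0.44, against -0.04 in macrophages and -0.30 in dermal cells. Egr3, of the same family as Egr1, was at 66.6 and 29.6 CPM, a ratio of -1.17, beside -0.61 in macrophages and -1.65 in dermal cells. Tnf, a cytokine held in mast cells, was at 48.4 and 30.9 CPM.

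Cell cycle lists were close between the libraries. Of 52 G2M genes 2 were lower in mast cells and 4 in macrophages, near the shares of all genes that were lower (2.41% and 5.16%), and 19 were lower in dermal cells, where 4.47% of all genes were. The medians were -0.12, -0.27 and -0.51. Of 42 S phase genes none passed 1.5-fold in mast cells. The difference between classes was not tested.

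Ckb, brain-type creatine kinase (chromosome 12, 111669361 to 111672338, minus strand), stood at 89.8 and 14.4 CPM, a log2 ratio of -2.64 (-2.94 to -2.34). It was seen in 118 of 155 wildtype and 77 of 237 mutant members. The ratio was -0.24 in macrophages and -0.99 in dermal cells. Slc7a8, an amino acid transporter, stood at 19.0 and 6.82 CPM in mast cells, a ratio of -1.48, beside 0.13 and 0.60 in those classes. Bnip3, a hypoxia-responsive gene, had a ratio of -1.08, beside -0.26 in macrophages and -0.39 in dermal cells. Gnai1, a G protein subunit, had one of -1.03, beside -0.42 in dermal cells. In macrophages it was -1.76, on 23 wildtype and 13 mutant UMIs. Among the genes named by rank, the largest drops were found in all 3 classes. Gm10320 had a ratio of -7.24 in mast cells, -7.64 in macrophages and -7.04 in dermal cells. Tpm3-rs7 and AA465934 were low in all 3 classes too, with -4.34 and -4.28 in mast cells. Lbr, the lamin B receptor, had ratios of -0.96, -0.81 and -1.01.

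**Figure D5:**
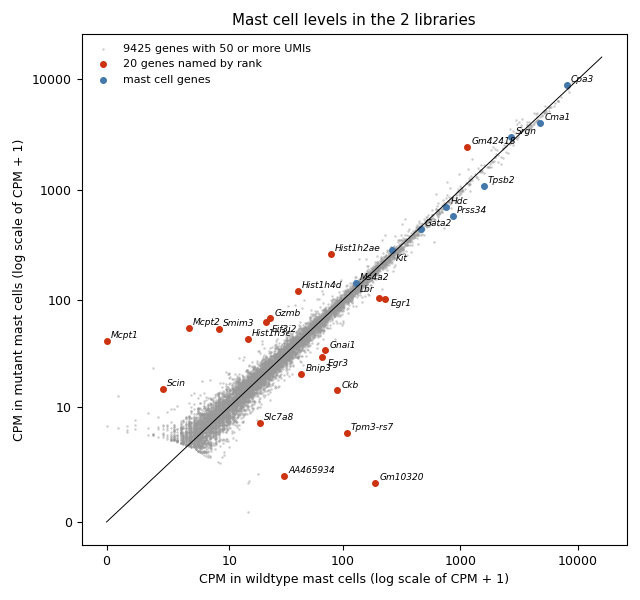
CPM of 9425 genes in wildtype (x) and mutant (y) mast cells, on a log scale of CPM + 1, with the line of equality. The 9 mast cell genes in blue lie near the line, and the 20 genes in red are those named by rank of their counting interval, such as Ckb at 89.8 against 14.4 CPM.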

How the data were processed

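Embryonic skin cells were dissociated with trypsin, stained with DAPI, sorted and loaded on the Chromium 3′ kit, wildtype and mutant in parallel on the same sequencing lane, per the labels. The authors used Cell Ranger 6.1.2 (per the file headers) and mm10, and Seurat is named too (per the submitters' processing notes). Their deposited tables give whole UMI counts of 32285 genes for every barcode. Lists of the barcodes they took as dermal were deposited as well, the way of choosing them being not given in the sources used here.

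Members and lists were chosen with earlier results of these data known, and the Cma1 ranges, the members set aside and the promoters after values were seen. Macrophages had at least 2 C1q genes with 5 or more UMIs of them and fewer than 3 rule genes. Each of the other classes off the dermal lists had at least 3 markers and 5 UMIs of exactly 1 list. UMIs were summed per class and library and divided by the class total (CPM). Ratios have exact conditional binomial intervals, shares exact Clopper-Pearson intervals. A gene at 0 was set to 3 counts over the class, giving a bound. Genes with 50 or more mast cell UMIs counted as measured. Shares of cells with a UMI, the G2M shares and 1 alternative used cells thinned to 8000 UMIs, leaving out 2 wildtype and 5 mutant members. On simulated mast cell sums, intervals covered the true value for 94 to 98% of genes, by fold. The simulated sums had no spread between cells, as the interval assumes. They check the calculation and not how well the interval suits uneven cells. Scrublet (in scanpy 1.11.5) called 3.98% of wildtype and 3.23% of mutant barcodes. Calls were kept in the main values.

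Named genes were the rule genes and Kit, the 15 genes outside the rule farthest above every other class, the 10 highest and 10 lowest mutant over wildtype by the interval bound nearest 0 among genes with 100 or more UMIs, and list members with most UMIs or the largest ratio. The ranking left out mitochondrial, ribosomal, haemoglobin and sex-linked genes, and genes at under 10% of the level in their top class (possible free RNA), judged in the library where the mast cell level was higher. Ly6g, Ppbp and other markers at 0 were named as such. Alternatives were other member rules, scalings, means over cells, thinning, UMI minimums and doublet filters. Gene coordinates came from GENCODE release M21 and promoters from RefSeq. Python 3.11.15, numpy 2.4.6, scipy 1.17.1 and pandas 2.3.3 were used. Raw reads were not used here.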

Additional observations from a re-analysis of the deposited data

How the results depend on the processing

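The mutant over wildtype ratio of mast cell shares was above 1 under each alternative, between 1.14 and 1.62. It was lowest with mast cells and macrophages as the denominator (1.139), where the intervals of the 2 shares overlapped. Over barcodes off the dermal lists the shares were 6.29% and 10.1%, and over mast cells and macrophages 39.6% and 45.1%. Without members rich in Mcpt8, collagen or haemoglobin they were 1.845% and 2.766%. The share with 3 or more core G2M genes was 83.9% (wildtype) and 80.6% (mutant) without thinning, 59.7% and 53.9% at 5000 UMIs, and with 2 of 8 genes 71.6% in the mutant. Genes higher in the mutant numbered 830 by means over cells, 853 and 194 at minimums of 20 and 100 UMIs. Genes lower numbered 136 with thinned cells, 482 and 108 at those minimums, and 145 without members that met another class's rule. Of the named log2 ratios, 3 turned: Mcpt8 was 1.31 with 4 of 7 genes and 10 UMIs required, and Mcpt4 was -0.25 without the members set aside and -0.085 with Cma1 ranges weighted alike. The cause was not tested. The last 2 settings, leaving out Scrublet calls and the macrophage denominator were chosen after seeing the data. Low depth per gene limits all values near the minimum of 50 UMIs. No paired analysis was possible because each genotype had 1 library.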
